A study of Mus musculus with 14 samples.

Results

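The naive pluripotency transcription factors described here are 10 genes, Pou5f1, Sox2, Nanog, Klf2, Klf4, Klf5, Esrrb, Tfcp2l1, Zfp42 and Tbx3. They were chosen by name: a gene counted when its symbol was in the RNA-seq table, and a cleavage site counted when the deposited annotation of the site named 1 of the genes. All 10 genes were among the 22376 genes of the RNA-seq table. Of the 5990 pile-up sites in either Degradome-seq table, 6 named a member, and they lay in 4 genes: 3 sites in Nanog and 1 site each in Esrrb, Tbx3 and Zfp42. The Drosha table held 3 of these among its 3919 sites, and the Dicer table held all 6 among its 4666 sites. No listed site named Pou5f1, Sox2, Klf2, Klf4, Klf5 or Tfcp2l1.

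Naive pluripotency is the state of the inner cell mass before implantation, which mouse embryonic stem cells (ESCs) keep in culture with leukaemia inhibitory factor (LIF). Pou5f1 (OCT4) and Sox2 bind DNA together and are required in every pluripotent cell. Nanog, Esrrb, Klf2, Klf4, Klf5, Tfcp2l1 and Tbx3 sustain the naive state, and some of them are activated in part by LIF signalling through STAT3. Zfp42 (REX1) is a zinc finger protein used as a marker of the naive state. Drosha is the nuclear RNase III enzyme that cuts stem-loops out of primary miRNA transcripts and out of some mRNAs. Dicer, the cytoplasmic RNase III enzyme, then trims the released stem-loops to mature miRNAs, which guide Argonaute proteins to mRNAs.

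Degradome-seq captures polyadenylated RNA that carries a 5′ monophosphate (5′P), so that the first base of a read marks a 5′P end, such as a cut leaves. The question of the study was which of these ends depend on Drosha and which depend on miRNAs. The Drosha comparison used ESCs with loxP-flanked Drosha alleles (Drosha fl/fl) and a tamoxifen-inducible Cre at the Rosa26 locus (Gt(ROSA)26Sor CreERT2). The Drosha-deficient cells received 100 nM 4-hydroxytamoxifen for 72 h and were collected 48 h after its removal. Their controls were the same line without the drug, so that loss of Drosha and exposure to tamoxifen or to active Cre cannot be told apart. The Dicer comparison used Dicer fl/fl ESCs transduced with a GFP-Cre retrovirus, against the same line transduced with GFP alone. Both Dicer groups were enriched for transduced cells by a sort for GFP (day 3), and libraries were made from cells grown on for 2 days. The controls of both lines therefore carry the floxed alleles too. There were 2 Degradome-seq libraries in each of these 4 groups, and RNA-seq covered 3 control and 3 Drosha-deficient libraries. All ESCs grew with LIF on mouse embryonic fibroblasts that had been arrested with mitomycin C. Nothing in the labels ties the replicates to separate clones or thaws, so the p-values measure the spread between these libraries, which may be technical.

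Depth was even across the Degradome-seq libraries, with 28700000 to 34500000 mapped reads each, as inferred from the step between RPM values. For the Drosha line the paper states fewer reads, counting those that mapped uniquely. What accounts for the difference was not tested. Values are RPM, the read starts at a position scaled to the mapped reads of the library. A floor of 3 reads corresponded to between 0.0868 and 0.105 RPM, which covers counting error only. The pile-up sites together took 8.69% to 12.6% of the mapped reads in the Drosha line and 23.1% to 30.1% in the Dicer line. No site named Drosha or Dicer1, so the targeted genes could not be followed in the Degradome-seq libraries. In annotated miRNA genes, 91 of 93 sites were lower after loss of Drosha (70.8% of all sites), and their median log2 fold change was −1.97. After loss of Dicer, 46 of 79 such sites were lower (56.6% of all sites), with a median of −0.10. The authors kept sites that their classifier, trained on miRNA sites, accepted in both control replicates. That choice favours lower values in the deficient libraries, so these counts are not an independent check on the labels. The whole Drosha table was shifted downwards, with a median log2 fold change of −0.93 over all sites, and the Dicer table hardly at all, with a median of −0.12. The values of the members are to be read against these medians, which rest on the same choice of sites, as do all shares of sites given below.

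The 6 sites are shown first, because every value below belongs to 1 of these RNA ends. Each line gives the sense strand 5′ to 3′, cut from the GRCm38 genome at the position of the site. The 10 bases upstream are in lower case, and the capitals begin at the first base of the reads.
Esrrb 3′ UTR, chr12:86521459-86521488, plus strand: ctggaatgacTTAAGATGTATATATTTTTT
Nanog 3′ UTR, upstream site, chr6:122713784-122713813, plus strand: cttatccactGAGCCATCTCACCAGCCCCT
Nanog 3′ UTR, downstream site, chr6:122713793-122713822, plus strand: tgagccatctCACCAGCCCCTGGTTTATTT
Nanog 5′ UTR, chr6:122707584-122707613, plus strand: gttggccttcAGATAGGCTGATTTGGTTGG
Tbx3 5′ UTR, chr5:119671008-119671037, plus strand: gccgccgagcAGACGCCCGGGGAATTCTAG
Zfp42 5′ UTR, chr8:43306851-43306880, minus strand: aggaaataggTAGAGCGCATCGCATCGCTG

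None of the 6 sites lay in coding sequence. The Esrrb end lay near the 3′ end of the mRNA, with the first base of the reads 159 nt before the last base of the transcript Esrrb-204 and 156 nt before that of Esrrb-203. The Nanog 3′ UTR pair lay 9 nt apart, 839 and 830 nt before the end of the transcript, so that the printed stretches of these 2 sites share most of their bases. The 5′ UTR sites lay close to annotated transcript starts. Reads of the Nanog 5′ UTR site began 26 nt after the first base of Nanog-201 and 29 nt after that of Nanog-202. In Nanog-203 the same position is intronic, 78 nt from the nearest exon edge. The Tbx3 site coincided with the annotated first base of Tbx3-201, although Tbx3-202 and Tbx3-203 begin 349 and 156 nt upstream of it. The Zfp42 site lay 66 to 110 nt from the starts of its 3 transcripts, inside the first exon and 29 nt before the end of that exon.

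**Figure D1:**
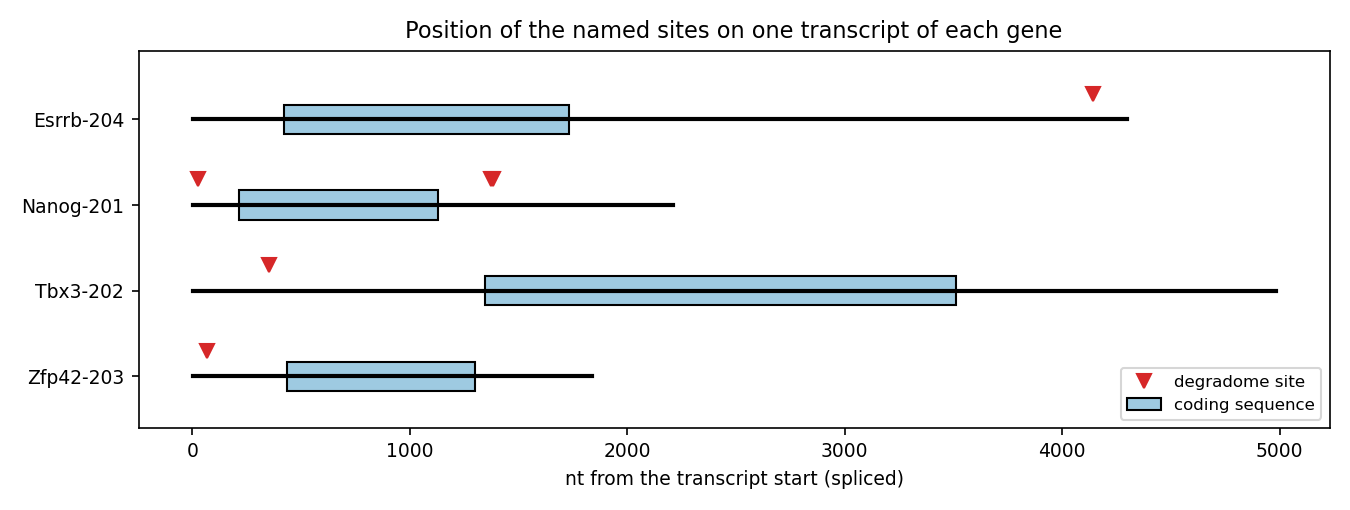
Position of the 6 named sites (triangles) on 1 transcript of each gene, in nt from the transcript start after splicing, with the coding sequence as a box and the UTRs as a line. All triangles lie outside the boxes; the pair in the Nanog 3′ UTR is drawn as 2 triangles that nearly coincide, 9 nt apart.

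The sequences differed in how well they identify their origin. For 5 of the 6 sites, the first 30 bases of the read occurred at 1 place in the genome. Those of the upstream Nanog 3′ UTR site occurred at 2 places. A longer read from that site also holds the first 30 bases of the downstream site, which occurred at 1 place. How many of its reads were that long was not tested. All of the first 30 bases from both Nanog 3′ UTR sites and 80% of those from the Esrrb site are soft-masked as repeat in the reference. Directly upstream of the downstream Nanog site, 4 genomic bases matched the 3′ end of the RNA linker that was ligated in the protocol, and 22.1% of all sites had at least 3 such bases. There were 2 at the upstream Nanog site and 0 at the other 4 sites. Whether linker-like sequence contributed to the reads there was not tested.

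Pairing with miRNAs was as close at these sites as at the median site. When each of 1622 mature mouse miRNAs was placed so that an Argonaute cut opposite its positions 10 and 11 would give the observed end, the best miRNA reached 12 Watson-Crick pairs over the 19 positions from 2 to 20, at each of the 6 sites. The median over all sites was also 12, and 58.9% of sites reached at least that many. The best-paired site in the Plekhm1 mRNA, which is known to be cut by miRNA-guided Argonaute2, reached 17. A count of pairs is a description of the letters and says nothing of a miRNA's presence. Folding of the 80 nt upstream and 20 nt downstream of each end gave −12.4 kcal/mol for the Esrrb site, −33.8 and −29.9 kcal/mol for the upstream and downstream Nanog 3′ UTR sites, and −31.0 kcal/mol for the Zfp42 site, whose window starts before the annotated start of Zfp42-203 but not of the other transcripts. The median was −22.6 kcal/mol over all sites and −39.2 kcal/mol over the 101 sites in miRNA genes. The windows of the 5′ UTR sites at Nanog and Tbx3 also reach past annotated transcript starts. The Tbx3 fold gave −29.6 kcal/mol, from a window that starts before the annotated start of some transcripts but not of others. The Nanog 5′ UTR fold gave −37.5 kcal/mol, the lowest of the 6 sites. Its window starts before the annotated start of each transcript in which the site is exonic. That fold may therefore include bases outside the mRNA.

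The Esrrb 3′ UTR end was by far the deepest of the members and the steadiest between replicates. Esrrb encodes an orphan nuclear receptor that sustains self-renewal. In the Drosha line, its site (chr12:86521469) had 57.6 and 58.5 RPM in the control libraries and 41.1 and 33.7 RPM in the Drosha-deficient libraries. Both control libraries were above both deficient libraries, as at 59.9% of all sites in that table. The means were 58.1 ± 0.641 and 37.4 ± 5.22 RPM (SD, n = 2 each). The log2 fold change was −0.64 (SE 0.32), with an adjusted p (FDR) of 0.0895 from limma, and 56.3% of all sites in the table had a lower one. It was −0.05 (limma FDR 0.880) once each library was centred on its median over all sites. In the Dicer line the same end had 185 and 182 RPM in the control libraries against 269 and 273 RPM in the Dicer-deficient libraries. Here both deficient libraries were above both control libraries, as at 16.8% of all sites in the Dicer table. The means were 184 ± 2.00 and 271 ± 3.09 RPM (SD, n = 2 each), a log2 fold change of 0.56 (SE 0.27, limma FDR 0.541). Although these groups were far apart compared with their spread, limma moderates the variance of each site towards that of sites of like depth, and no site of the Dicer table passed its threshold.

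The downstream Nanog 3′ UTR end was the next deepest. Nanog encodes the homeodomain protein whose loss leaves ESCs prone to differentiate. In the Drosha line it had 26.5 and 11.9 RPM in the control libraries and 12.1 and 8.13 RPM in the Drosha-deficient libraries (chr6:122713803). The groups overlapped, since the second control library was just below the first deficient one. The control libraries themselves differed 2.22-fold. The log2 fold change was −0.84 (SE 0.40, limma FDR 0.0753), close to the median of all sites. In the Dicer line the values were 45.8 and 58.7 RPM in the controls against 34.8 and 30.2 RPM in the Dicer-deficient libraries. The groups did not overlap, as at 27.4% of all sites where the controls were above, and the means were 52.2 ± 9.12 and 32.5 ± 3.24 RPM (SD, n = 2 each). The log2 fold change was −0.67 (SE 0.31, limma FDR 0.524), and 18.0% of all sites had a lower one.

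The other Nanog ends were shallower and were listed in the Dicer table only. The upstream 3′ UTR site (chr6:122713794) had 3.76 and 6.29 RPM in the controls against 3.21 and 4.09 RPM in the Dicer-deficient libraries, with overlapping groups and a log2 fold change of −0.42 (SE 0.42, limma FDR 0.709). It took a steady minority of the reads of the pair, 7.60% and 9.69% in the controls and 8.44% and 11.9% in the Dicer-deficient libraries. The 5′ UTR site (chr6:122707594) was near the limit of depth, with 1.36 and 0.612 RPM in the controls against 0.507 and 0.336 RPM in the Dicer-deficient libraries, which is 47, 21, 15 and 11 reads. Its controls lay above its deficient libraries, as at 27.4% of all sites in the Dicer table, with a log2 fold change of −0.99 (SE 0.66, limma FDR 0.592).

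Tbx3 encodes a T-box factor that acts downstream of LIF. At its 5′ UTR site (chr5:119671018) the Drosha control libraries had 0.802 and 1.81 RPM and the Drosha-deficient libraries 1.00 and 0.660 RPM, from 19 to 53 reads. The groups overlapped, and the log2 fold change of −0.52 (SE 0.52, limma FDR 0.393) became 0.07 once each library was centred on the median of all sites. The Dicer controls had 3.01 and 1.81 RPM and the Dicer-deficient libraries 1.32 and 1.41 RPM. Both controls were above both deficient libraries, as at 27.4% of all sites in the Dicer table. The log2 fold change was −0.74 (SE 0.46, limma FDR 0.574).

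Zfp42 had 1 named site, in its 5′ UTR (chr8:43306870) and in the Dicer table only. The controls had 4.46 and 5.62 RPM and the Dicer-deficient libraries 3.68 and 3.94 RPM. The controls were above the deficient libraries, as at 27.4% of all sites in the Dicer table, by a margin that was small beside the spread of the controls. The log2 fold change was −0.39 (SE 0.36, limma FDR 0.690).

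**Figure D2:**
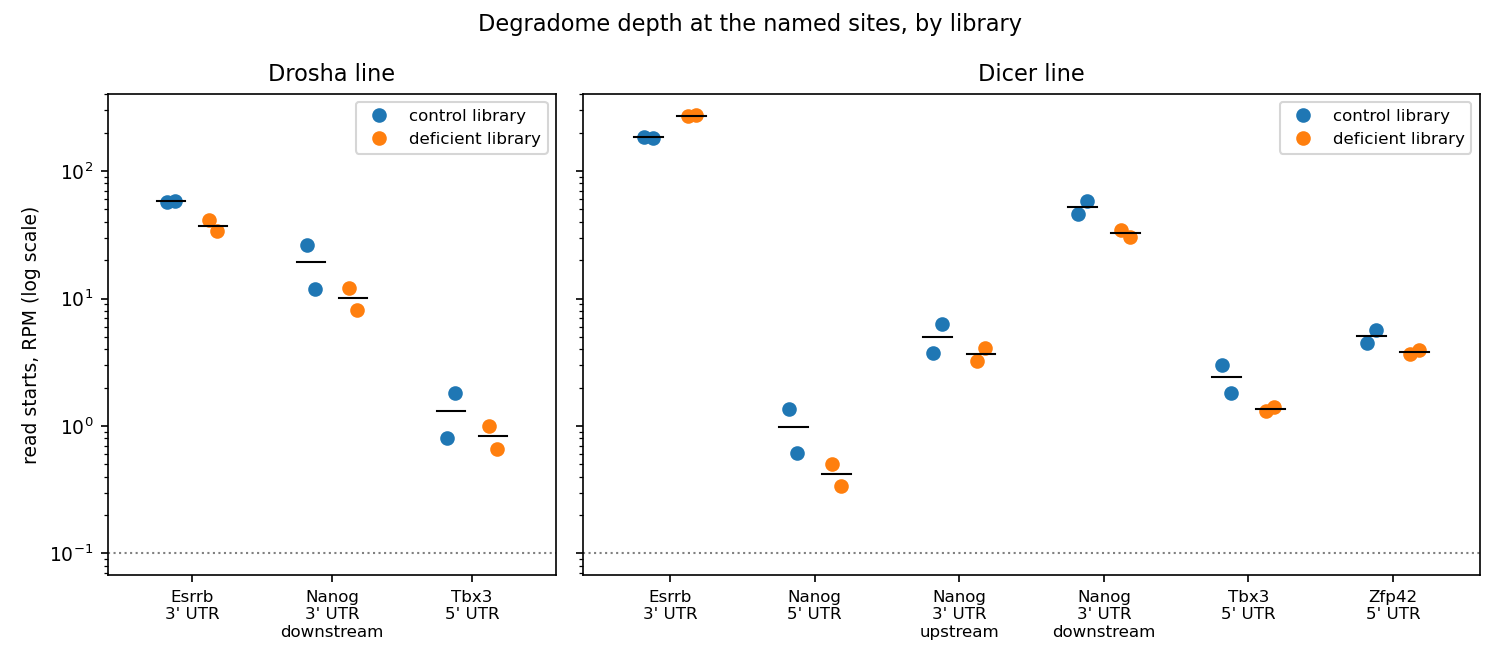
Read starts in RPM (log axis) at each named site in each Degradome-seq library of the Drosha line (left) and the Dicer line (right); points are libraries, short bars the means of 2, and the dotted line marks 0.1 RPM, about 3 reads. At the Esrrb site the deficient libraries lie below the controls in the Drosha line (37.4 against 58.1 RPM) and above them in the Dicer line (271 against 184 RPM).

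None of the named sites was called by limma in either comparison, where a call needed both an FDR below 0.05 and a log2 fold change of more than 1.5 up or down. In the Drosha comparison, 0 of 3 sites were called, where 37.6% of all sites were called decreased and 9.57% increased. At an unadjusted p under 0.05, 1 of the 3 sites was lower, the Nanog site, against 49.6% of all sites. In the Dicer comparison, 0 of 6 sites were called, as were 0 of all 4666 sites (0%), and at an unadjusted p under 0.05 there were 0 of 6, against 5.19% of all sites lower and 4.65% higher. The smallest FDR in the Dicer table was 0.465, so that comparison had no call with which the members could be contrasted. Loss of Drosha went with a lower mean at 3 of 3 sites (70.8% of all sites), and loss of Dicer with a lower mean at 5 of 6 sites (56.6% of all sites). The 3 Drosha values were all less negative than the median of the table. With 2 libraries in each group, missing the threshold does not show that an end was unaffected.

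**Figure D3:**
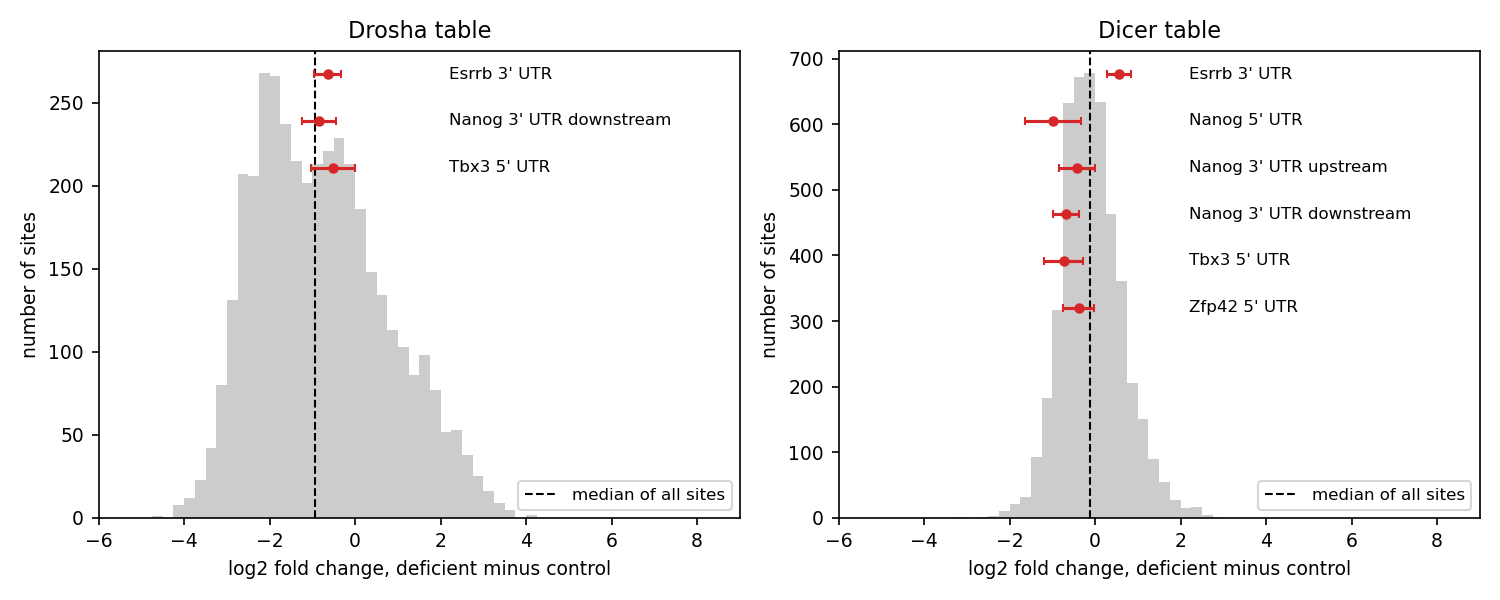
Log2 fold change of RPM, deficient minus control, for all sites of the Drosha table (left) and the Dicer table (right) as histograms, with the median of all sites as a dashed line. Points are the named sites with their limma SE, placed at arbitrary heights; in the Drosha table they lie just above the median of −0.93, and in the Dicer table Esrrb lies at 0.56 and the other 5 below the median of −0.12.

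The difference between the comparisons was tested as an interaction at the 2595 sites present in both tables, of which 3 named a member. At Esrrb the Drosha change minus the Dicer change was −1.20 on the log2 scale (SE 0.37), with an unadjusted p of 0.00967 and a limma FDR of 0.0727. It was −0.69 (FDR 0.223) once each library was centred on its median over all sites. At the downstream Nanog site it was −0.16 (SE 0.59, limma FDR 0.855) and at Tbx3 0.21 (SE 0.78, limma FDR 0.855). The difference was below 0 at 2 of the 3 sites, as at 60.6% of the shared sites. None of the 3 passed an FDR of 0.05, a threshold that 1.7% of the shared sites passed as lower and 3.08% as higher (44 and 80 sites). Those counts rested on single libraries, being 0 and 0 without any 1 of the 4 Drosha libraries and 726 and 243 without Dicer control replicate 1. At an unadjusted p under 0.05, Esrrb was 1 of 3 lower, against 25.9% of the shared sites. The lines also differed in their controls, the Esrrb end having 58.1 RPM in Drosha controls and 184 RPM in Dicer controls. The tables were normalised separately, and line, transduction and sorting cannot be told apart there.

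The members with a named site were not simply those with the most mRNA in the Drosha line. RNA-seq covered that line only, while the Zfp42 site and some Nanog sites were listed in the Dicer table only. For the RNA-seq libraries the usable column is the authors' mean log2 CPM (counts scaled to library size) over all 6 libraries, which has no error and does not separate control from Drosha-deficient cells. No change of a member's mRNA can be given from it. Divided by the length of all annotated exons, it gives a level per kb that can be compared between genes. Pou5f1 was highest, at 8.61 log2 CPM per kb, above 99.5% of genes. Nanog followed at 7.97 and Sox2 at 7.57. Pou5f1 and Sox2, the core pair, thus ranked 1 and 3 of 10 and had no named site in either table, while Nanog, between them, had 3.

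The other factors of the naive state lay below these 3 genes. Esrrb had 6.36 log2 CPM per kb and Tfcp2l1 had 6.06, and of these close neighbours only Esrrb had a named site. Klf2 had 5.93 and Zfp42 5.73. Klf4 with 4.95 and Klf5 with 4.87 exchanged places when the longest transcript was used for the length (4.96 and 5.51), and the order of the other 8 did not change. Tbx3 was lowest at 3.66, above 78.8% of genes and 30.9-fold below Pou5f1 on the linear scale, and yet had a named site. The 4 genes with named sites therefore ranked 2, 4, 7 and 10. Without an error on these pooled values, whether neighbours in this order differ beyond their spread cannot be said. Annotated copies of members that could share reads had low levels, the highest being Zfp42-ps1 at −0.00 log2 CPM, against 6.64 for Zfp42.

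**Figure D4:**
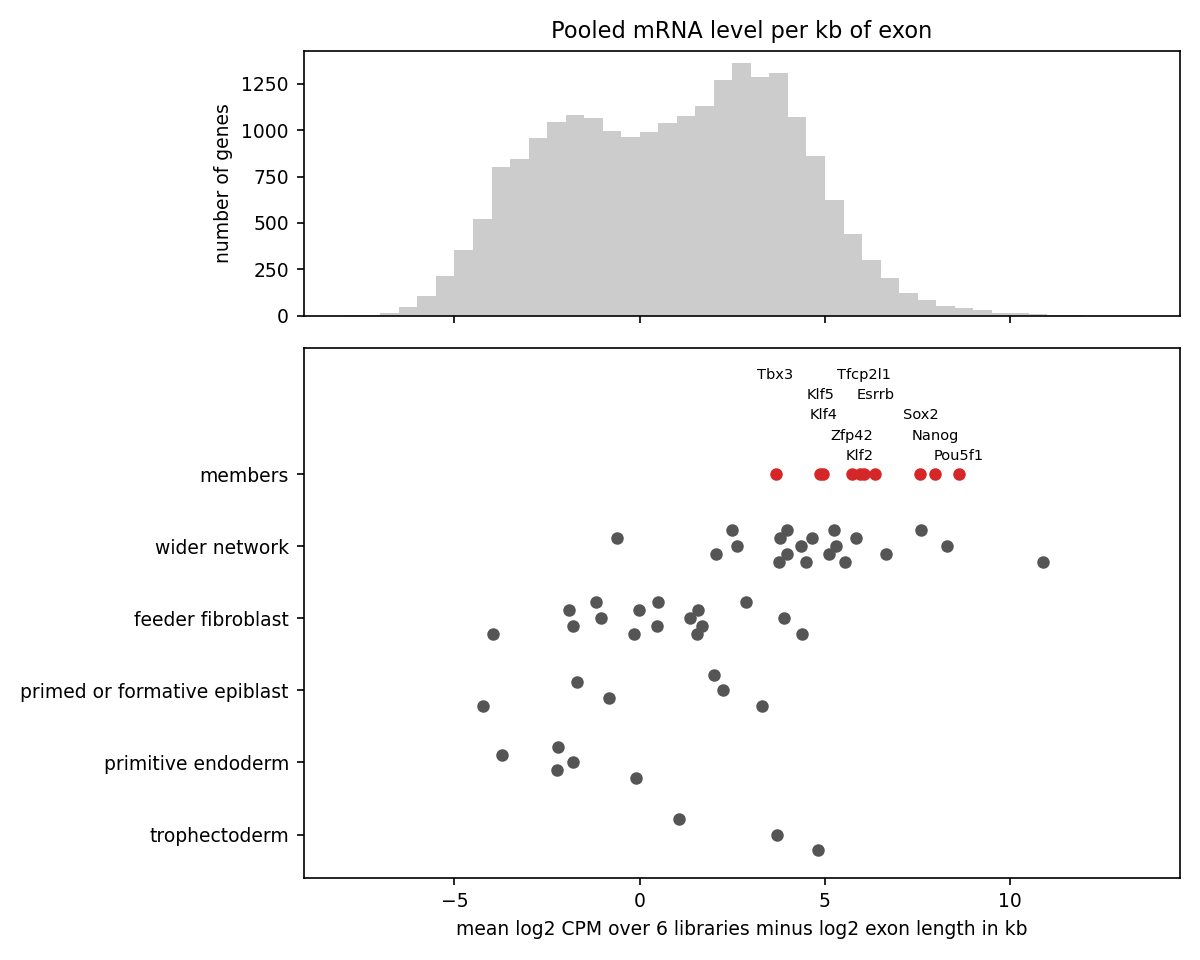
Pooled mRNA level, as the authors' mean log2 CPM over 6 RNA-seq libraries minus log2 of the exon length in kb, for all genes (histogram, top) and for the members and 5 gene lists (points, bottom, with heights spread only for legibility). The members run from Tbx3 at 3.66 to Pou5f1 at 8.61, to the right of the median of all genes at 1.05.

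As a set, the members stood high. Their median was 7.93 log2 CPM and 5.995 log2 CPM per kb, against 2.34 and 1.05 over all genes. Of 20 other genes of the pluripotency network, all were in the RNA-seq table, and the levels ranged from 0.50 log2 CPM for Gbx2, a homeobox target of LIF, to 10.19 for Dppa5a, an RNA-binding protein of pluripotent cells. Only Fgf4 among them, the growth factor that OCT4 and SOX2 activate together, had a named site (chr7:144865084). Its Drosha controls had 103 and 89.7 RPM and its Drosha-deficient libraries 41.0 and 42.7 RPM. This was a log2 fold change of −1.20 (SE 0.32, limma FDR 0.00345), under the fold threshold of 1.5. The only site of the list was thus not called, where 37.6% of all sites were called decreased and 9.57% increased. By an FDR under 0.05 alone the Fgf4 site was lower, as were 47.4% of all sites in the Drosha table. The other 19 genes had no named site to test. In the Dicer line the Fgf4 end had 71.2 and 47.8 RPM in the controls against 50.1 and 47.2 RPM in the Dicer-deficient libraries, with a log2 fold change of −0.26 (SE 0.32, limma FDR 0.757).

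The labelled cell type was borne out by its markers, and some markers of feeder fibroblasts were found beside them. Whether their RNA came from the feeder layer was not tested. The 8 ESC markers, 4 of which are members, had a median of 8.87 log2 CPM and the lowest, Lin28a, 5.96. The 16 feeder fibroblast markers had a median of 3.04, ranged from −2.30 for Twist2 to 6.60 for Col1a1, and summed to 297 CPM, against 3502 CPM for the members. Markers of the primed or formative epiblast had a median of 2.17 over 6 genes and ranged from −2.91 for Fgf5 to 4.83 for Zic2, with Dnmt3b at 4.61 and Otx2 at 4.08. The 5 primitive endoderm markers had a median of 0.50. Of 5 trophectoderm markers, Cdx2 and Elf5 had no row in the table, and Tfap2c was highest of the other 3 at 6.70. In bulk libraries such as these, fewer ESCs and less RNA per ESC cannot be told apart, and the part of feeder RNA in the Degradome-seq values was not tested.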

How the data were processed

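Degradome-seq was analysed in 8 libraries, and RNA-seq in 6 libraries as a pooled mean only. The authors trimmed reads with Trimmomatic (0.38.0 in the submitters' processing notes), aligned them to GRCm38 with STAR, counted the starts of reads at each position, and kept the positions whose stacking resembled that of miRNA cleavage sites, as judged by a trained classifier. The deposited values are RPM of mapped reads for each library. A site is listed only where the classifier accepted it, so a gene without a listed site may still be cut. The deposited RNA-seq table holds the authors' mean log2 CPM from edgeR (3.26.1 in those notes). The authors' log2 fold changes, F statistics, p-values and FDR in these tables were not used.

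Sites were tested with limma 3.58.1 in R 4.3.3 on log2(RPM + 0.1), with a mean-variance trend and Benjamini-Hochberg adjustment over all sites of a table. Fold changes are on that scale, which understates changes of low sites. Calls needed an FDR under 0.05 and an absolute log2 fold change over 1.5, and for the interaction an FDR under 0.05. RPM values under 100 were whole multiples of 1 read within 0.1 read, but the low end of some libraries began at 2 reads, so no count test was run. Depth, inferred from the step between RPM values, was 28700000 to 34500000 mapped reads for each library.

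Positions and exon lengths came from GENCODE vM21 on GRCm38, and 22353 of 22376 genes had a length. Sequences were read from the RefSeq copy of GRCm38, miRNAs from RefSeq, and folds were made with RNAfold 2.7.2. All 10 members, every site naming one, and of the network list the genes with a site and the highest and lowest level were named. The members and lists were chosen with earlier results of these data known. On simulated data, 200 sites in each comparison were changed by 3 on the log2 scale. Of these, 99% were recovered in the Drosha table, 100% in the Dicer table and 97.5% for the interaction. False calls were made at 2 of 3719, 0 of 4466 and 11 of 2395 unchanged sites, in the same order. The named sites changed less than that, the strongest change being −0.99 (Nanog 5′ UTR, Dicer comparison) and the strongest interaction −1.20 (Esrrb). Recovery of changes of that size was not tested. In the real Dicer table no site was called, and the smallest FDR was 0.465. The recovered shares therefore describe the simulated data only. The alternatives changed the pseudocount, scaling, filter, trend, threshold, replicate block and libraries.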

Additional observations from a re-analysis of the deposited data

Results flagged for a closer look

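At the Esrrb 3′ UTR end, the deficient libraries lay on opposite sides of their controls in the 2 lines in RPM, which is why it is listed here. Both Drosha-deficient libraries (41.1 and 33.7 RPM) were below both of their controls (57.6 and 58.5 RPM), and both Dicer-deficient libraries (269 and 273 RPM) were above theirs (185 and 182 RPM). The opposite direction depends on the scaling, since the Drosha change of −0.64 was −0.05 (limma FDR 0.880) once each library was centred on its median over all sites. The difference of the changes was −1.20 on the log2 scale (SE 0.37, limma FDR 0.0727), short of the threshold of 0.05. Over the alternatives it ranged from −1.35 to −0.69 and its FDR from 0.0120 to 0.247. Groups of 2 libraries are too small for a search for samples that stand apart.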

How the results depend on the processing

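No named site was called in the Drosha or the Dicer comparison under any of the alternatives run for it, which were pseudocounts of 1 and 0.01 RPM, median centring, a mean of at least 0.5 RPM, no trend, a fold threshold of 1, a replicate block and leaving out each library. In the Drosha comparison the FDR alone passed 0.05, with the fold threshold not reached, at Nanog without Drosha control replicate 2 (−1.41, FDR 0.0485) and without Drosha-deficient replicate 1 (−1.12, FDR 0.0251). For the interaction the count of sites past an FDR of 0.05 rose from 0 to 1 (Esrrb) with a replicate block, and ranged from 0 to 1 when each library was left out, the 1 being Esrrb at −1.21 (FDR 0.0424) without Dicer control replicate 1. Replicates share only a number in the labels, so the block stands here only. Deviations of same-numbered libraries correlated at 0.13 in the Drosha and 0.53 in the Dicer line. With the replicate block the FDR was 0.00858 at Nanog and 0.0177 at Esrrb in the Drosha comparison, the interaction at Esrrb was −1.20 (FDR 0.0120), and calls over all sites went from 1473 decreased and 375 increased to 1475 and 375 in the Drosha table, from 0 and 0 to 67 and 119 in the Dicer table, and from 44 and 80 to 934 and 386 in the interaction. Without Dicer-deficient replicate 2 the Dicer table had 1 and 13 calls.

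Signs changed at Tbx3 and at the downstream Nanog site. Median centring, which moved the median of the Drosha table by 0.59 and that of the Dicer table by 0.01, turned Tbx3 in the Drosha comparison to 0.071 and the Nanog interaction to 0.35, and made the Drosha calls 871 decreased and 602 increased. The Drosha change at Tbx3 ranged from −1.06 to 0.020 as each library was left out, being above 0 without Drosha control replicate 2. That at Nanog ranged from −1.41 without Drosha control replicate 2 to −0.27 without Drosha control replicate 1, and that at Esrrb from −0.78 to −0.50. The interaction ranged from −0.73 to 0.41 at Nanog and from −0.33 to 0.76 at Tbx3. In the Dicer comparison the Nanog 5′ UTR site ranged from −1.51 to −0.47, the upstream Nanog 3′ UTR site from −0.78 to −0.05, the downstream one from −0.85 to −0.50, Tbx3 from −1.09 to −0.38, Zfp42 from −0.55 to −0.22 and Esrrb from 0.55 to 0.57, with the extremes at 1 or the other Dicer control left out, except for Esrrb. The cause of these shifts was not tested. A pseudocount of 1 RPM lowered the Drosha calls to 548 decreased and 265 increased.

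With the longest transcript as length, the levels in log2 CPM per kb were 9.34 for Pou5f1, 7.99 for Nanog, 6.85 for Esrrb, 6.08 for Tfcp2l1, 5.76 for Zfp42, 5.51 for Klf5, 4.96 for Klf4 and 4.08 for Tbx3, and those of Sox2 and Klf2 were the same. Among genes with a mean of at least 1 log2 CPM, the share below was 99.2% for Pou5f1, 98.7% for Nanog, 98.2% for Sox2, 95.0% for Esrrb, 93.6% for Tfcp2l1, 92.9% for Klf2, 91.7% for Zfp42, 84.6% for Klf4, 83.7% for Klf5 and 63.8% for Tbx3.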

Other observations

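Further pile-up sites lay inside member genes without naming them in the deposited annotation. There were 10, in 7 of the genes, and this search was chosen after the data were seen. Of the 6 on the sense strand, 5 began exactly at the first base of an intron, in Nanog (introns after different exons), Tbx3, Tfcp2l1 and Zfp42. The lines below show the intron starts, with exon bases in lower case and capitals from the first base of the reads, which is also the first base of the intron.
Nanog, first listed, chr6 position 122707934: acagaggctgGTAAGGAATTCAGTCCCCGA
Nanog, second listed, chr6 position 122711804: ctataagcagGTGGGGTCCTTAGAAGTTGC
Tbx3, chr5 position 119678833: aacctcaaagGTAAGTAAGTCTGGCCTTCT
Tfcp2l1, chr1 position 118664992: agcttctcagGTGAGTGAGTATTGTAGATT
Zfp42, chr8 position 43304475, minus strand: cagccagcagGTAAGAGTAAACGGTTTCAT

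Each of these reads begins with GT, the bases that open nearly all introns. Over the whole tables, 5.95% of Drosha sites and 6.49% of Dicer sites began at the first base of an annotated intron, with a median log2 fold change of −0.65 in the Drosha and −0.19 in the Dicer comparison. The Zfp42 intron start had 1.60 and 1.03 RPM in Drosha controls and 0.129 and 0.313 RPM in Drosha-deficient libraries, the latter being 4 and 9 reads. It was called decreased (log2 fold change −2.17, SE 0.57, limma FDR 0.00355), as were 37.6% of all sites in that table. In the Dicer line it had 12.9 and 9.30 RPM in controls and 6.05 and 2.44 RPM in Dicer-deficient libraries (−1.48, SE 0.50, limma FDR 0.469). The second Nanog intron start had 3.80 and 2.98 RPM in Drosha controls and 0.645 and 0.834 RPM in Drosha-deficient libraries, and was called decreased too (−2.05, SE 0.44, limma FDR 0.000793). The first Nanog intron start had 2.02 and 1.51 RPM against 1.06 and 0.904 RPM and was not called (−0.77, SE 0.45, limma FDR 0.148). Its groups overlapped in the Dicer line, with 1.74 and 3.264 RPM in controls and 2.97 and 2.35 RPM in Dicer-deficient libraries (0.14, SE 0.46, limma FDR 0.917). In the Dicer line the second Nanog intron start had 3.91 and 2.42 RPM in controls and 2.40 and 0.306 RPM in Dicer-deficient libraries (−1.66, SE 0.87, limma FDR 0.553). The Tbx3 and Tfcp2l1 intron starts were listed in the Dicer table only, at 1.15 to 2.33 RPM, with FDR of 0.613 and 0.753 from limma. Their controls were above the deficient libraries, as at 27.4% of all sites in the Dicer table.

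The remaining sense site, also in a Zfp42 intron and 110 nt from the nearest exon edge, had 5.12 and 1.25 RPM in Dicer controls and 0.574 and 0.336 RPM in Dicer-deficient libraries (−2.29, SE 0.75, limma FDR 0.469). On the antisense strand there were 4 sites, in Esrrb, Klf4, Nanog and Pou5f1. The Klf4 antisense site (chr4 position 55527964) had 7.50 and 8.35 RPM in Drosha controls and 1.74 and 1.74 RPM in Drosha-deficient libraries (−2.12, SE 0.38, limma FDR 0.000196). Its first 30 bases occur at 2 places in the genome and 3 bases upstream match the linker, and its Dicer controls differed 5.60-fold. The Esrrb antisense site had 7 linker-matching bases. The Pou5f1 antisense site (chr17 position 35510005) had 12.8 and 6.30 RPM in Drosha controls and 5.48 and 2.05 RPM in Drosha-deficient libraries (−1.39, SE 0.46, limma FDR 0.0148), under the fold threshold. In the Dicer line it had 4.92 and 0.874 RPM in controls and 12.6 and 3.54 RPM in Dicer-deficient libraries, with overlapping groups. The transcripts behind the antisense reads were not identified.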
